A study of Drosophila melanogaster with 6 samples.

Results

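The genes of oxidative phosphorylation were followed in heads of Prp31 mutant flies, separately for those in the nucleus and those in the mitochondrial genome. They were taken by name, as the genes of the deposited table whose symbol starts with ND-, COX, ATPsyn, UQCR, Sdh or mt:. The rule found 21 of 11836 genes, and all 21 had at least 1 FPKM on average across the libraries and were tested, as were 8465 genes of the table in all. FPKM is a count of sequenced fragments divided by the length of the gene and by the size of the library. Of the 21 genes, 13 lie in the mitochondrial genome and 8 in the nucleus. The nuclear genes are 3 of complex II and 5 of complex V. The table carries older symbols for most nuclear subunits, so no name starting with ND-, COX or UQCR occurs in it. A wider set of 71 nuclear genes, whose current symbols have these prefixes, is therefore described beside the 21, and 56 of the 71 passed the filter. This set was added after the table's symbols and the values of the 21 genes had been seen.

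Oxidative phosphorylation is carried out by 5 complexes of the inner mitochondrial membrane. Complexes I to IV pass electrons from NADH and succinate to oxygen and, except for complex II, pump protons, and complex V uses the proton gradient to make ATP. Complexes I, III, IV and V are built from subunits of both genomes, whereas complex II is encoded in the nucleus alone. Photoreceptors, neurons and muscle are tissues with a high demand for this pathway.

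In all, 3 libraries came from mutants homozygous for Prp31_P18 and 3 from control flies of genotype white (w), each made from 50 pooled heads of adults 2 days old, raised at 25 °C. The Prp31 protein works in pre-mRNA splicing, as part of the tri-snRNP of the spliceosome. The series holds males and females, and the sex of the flies in each library is not stated in the labels. The labels also do not say whether the mutants carry the white mutation, so eye colour background and Prp31 genotype cannot be told apart.

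The column totals ran from 348791 to 402452 FPKM. Reads per sample were given only as an average over the study, so the depth of each library is unknown. Prp31 itself had 13.5, 14.2 and 13.6 FPKM in the mutants and 13.8, 14.0 and 14.0 FPKM in the controls, so its level does not check the labels. In many genes control replicate 3 differed from controls 1 and 2, and counts of calls are given with and without it. Control replicate 3 was singled out by these same values, so the counts without it show how far calls rest on it. They are no separate test. Nothing says that the replicates came from separate crosses or cultures. The p-values therefore reflect the spread among these libraries and no more, and that spread may be technical. For each gene the fit also draws on the spread of genes of similar level.

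Transcripts of the 8 nuclear genes were less abundant in every mutant library than in control replicates 1 and 2, but control replicate 3 was at the level of the mutants. None of the 8 passed the test over all 6 libraries. The median log2 fold change, mutant against control, was -0.29 for the 8 genes, with all 8 below 0 and a range from -0.35 to -0.08, and the median of all 8465 genes tested was -0.066. The 13 mitochondrial genes had a median of -0.01, with 7 below and 6 above 0, and none passed either. With p-values from limma adjusted by Benjamini-Hochberg over all genes tested and a threshold of 0.05, 0 of the 21 genes were called, against a background of 11.3% of all genes, 3.53% higher and 7.81% lower. Without adjustment of p the count at 0.05 was also 0 of 21, against 8.14% higher and 19.2% lower. In bulk heads, fewer cells of a type and less RNA per cell cannot be told apart.

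**Figure D1:**
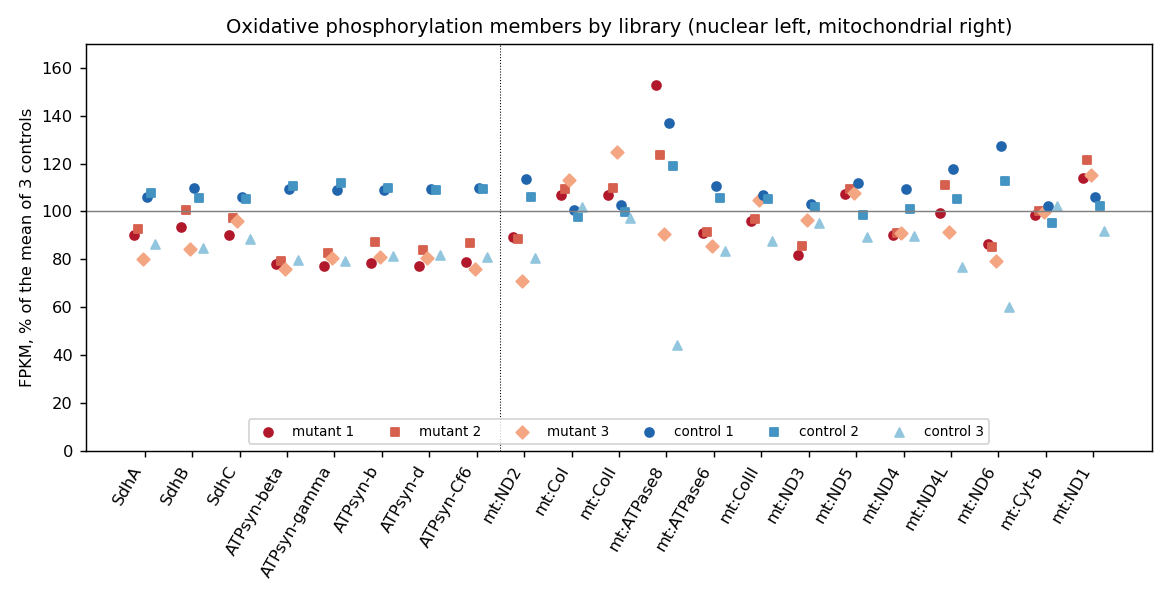
FPKM of each of the 21 genes in each library (vertical axis, percent of the mean of the 3 controls), with the 8 nuclear genes on the left and the 13 mitochondrial genes on the right of the dotted line. Reds are mutant and blues are control libraries, and control replicate 3 (light blue triangles) lies among the mutants in most nuclear genes, while mt:CoI, mt:CoII and mt:ND1 have all 3 mutants above all 3 controls.

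Complex II, succinate dehydrogenase, was represented by 3 genes with small differences. SdhA (2R, 19391863 to 19395971, reverse strand) encodes the flavoprotein subunit that oxidises succinate. Its levels were 103, 105 and 91.2 FPKM in mutants 1, 2 and 3 and 120, 123 and 98.2 FPKM in controls 1, 2 and 3. Control 3 fell inside the mutant range. The log2 fold change was -0.18 (SE 0.12), with an adjusted p of 0.349 in limma. SdhB (2R, 6807626 to 6809172, forward strand), the iron-sulfur subunit, had 169, 182 and 153 FPKM in mutants and 198, 191 and 153 FPKM in controls. SdhC (3R, 11208887 to 11209849, reverse strand), a membrane anchor, had 242, 260 and 257 FPKM in mutants and 285, 282 and 238 FPKM in controls. In SdhB and SdhC the groups overlapped through control 3, and the log2 fold changes were -0.10 and -0.08 (limma adjusted p = 0.651 and 0.689).

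The 5 nuclear genes of complex V, the ATP synthase, moved together from library to library. ATPsyn-beta (chromosome 4, 1031484 to 1034917, forward strand) encodes the catalytic subunit of the F1 head. Its levels were 695, 706 and 677 FPKM in mutants and 975, 988 and 711 FPKM in controls. All 3 mutants lay below all 3 controls, the highest mutant being just under control 3, and this was the case in 1 of the 8 nuclear genes, against a background of 21.8% of all genes. The mutant mean was 77.7% of the control mean, and the log2 fold change was -0.35 (95% interval -0.76 to 0.06, limma adjusted p = 0.245). The gene shares 274 bases with CG11076 on the opposite strand, and the authors' use of strand in counting is not given in the sources used here.

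ATPsyn-gamma, the central shaft that turns inside the head, had 341, 365 and 355 FPKM in mutants and 481, 494 and 349 FPKM in controls. The other members belong to the peripheral stalk that holds the head still. ATPsyn-b had 398, 442 and 411 FPKM in mutants and 552, 558 and 413 FPKM in controls, and ATPsyn-d had 299, 324 and 311 against 423, 422 and 316 FPKM. ATPsyn-Cf6, coupling factor 6, had 290, 319 and 280 FPKM in mutants and 403, 402 and 298 FPKM in controls. In each of these 4 genes controls 1 and 2 stood together above every mutant, and control 3 lay within the mutant range. Their log2 fold changes lay between -0.30 and -0.27, and the smallest adjusted p of all 21 genes was that of ATPsyn-d (limma, 0.235).

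Whether the nuclear genes passed the test depended on control replicate 3. It was below both other controls in 8 of 8 nuclear genes, against 43.8% of all genes tested, and within the range of the mutants in 6 of 8, against 42.6% of all genes. All 3 mutants were below controls 1 and 2 in 8 of 8 nuclear genes, against a background of 36.7%. In ATPsyn-beta control 3 was at 72.5% of the mean of controls 1 and 2, and the mutants were at 70.6%. With any library other than control replicate 3 left out, 0 of the 8 were called. With control replicate 3 left out, 6 of the 8 nuclear genes were called lower and none higher, against a background of 16.2% called lower and 9.93% called higher of 8450 genes. They were the 5 ATP synthase genes and SdhA. The log2 fold change of ATPsyn-beta was then -0.50 (SE 0.08, limma adjusted p = 0.00355), those of the other 4 ATP synthase genes lay between -0.46 and -0.41, and that of SdhA was -0.28 (limma adjusted p = 0.0482). SdhB and SdhC remained uncalled at -0.22 and -0.16 (limma adjusted p = 0.130 and 0.148). With the libraries also rescaled by their median ratio, a setting added after seeing the data, 4 of the 8 were called lower and none higher, against 11.8% and 12.2%. Weighting the libraries by their fit to the model, with all 6 kept, called 6 of the 8 and 3 of the 13 mitochondrial genes lower and none higher, against backgrounds of 25.6% and 13.3%. Median-ratio scaling over all 6 libraries called 0 of the 21, against 5.36% lower and 4.25% higher.

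**Figure D2:**
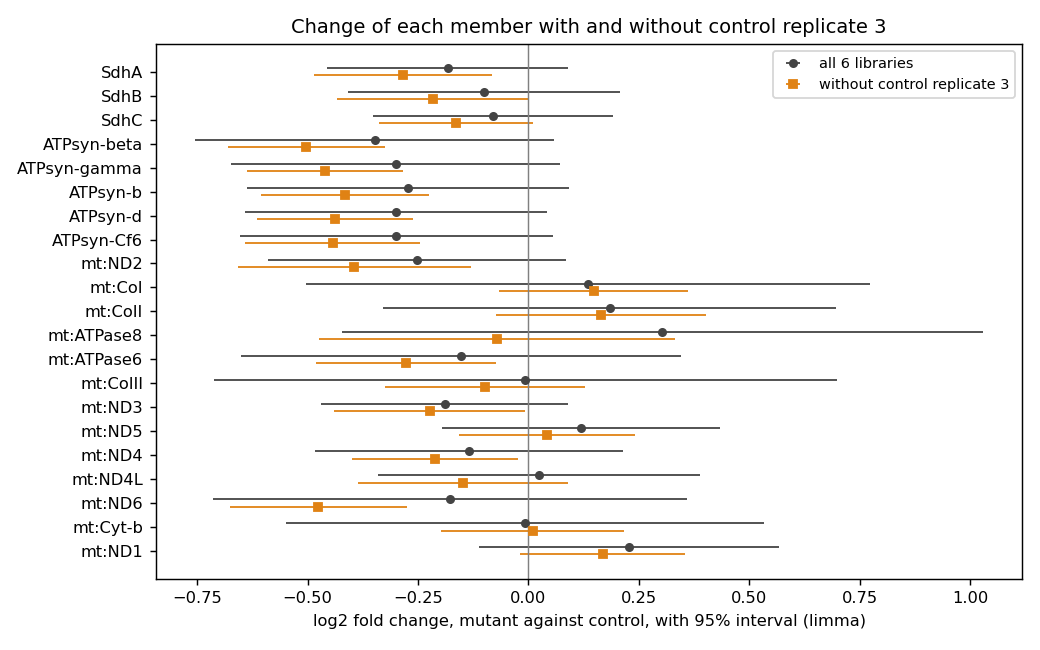
Log2 fold change of mutant against control for the 21 genes (horizontal axis, on the log2(FPKM + 1) scale) with its 95% interval from limma, over all 6 libraries (dark circles) and without control replicate 3 (orange squares). Over all 6 libraries every interval includes 0, and without control replicate 3 the intervals of the 5 ATP synthase genes, SdhA, mt:ND2 and mt:ND6 are among those wholly below 0.

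The 13 mitochondrial genes spanned a wide range of levels, in a similar order in each library. All values are FPKM, which corrects for gene length. The most abundant was mt:CoIII at 6256 to 7613 FPKM, whose range overlapped that of mt:CoI at 5462 to 6330 FPKM. mt:Cyt-b followed at 3590 to 3855, mt:CoII at 2777 to 3562 and mt:ATPase6 at 2026 to 2681 FPKM. mt:ND1 (733 to 970 FPKM) and mt:ND4 (805 to 984 FPKM) could not be ordered by their ranges, and mt:ND5 was lower at 442 to 554 FPKM. mt:ND3 had 328 to 413, mt:ND4L 25.8 to 39.5, mt:ND2 16.1 to 25.8, mt:ND6 6.81 to 14.4 and mt:ATPase8 1.69 to 5.80 FPKM. The 13 genes together held 6.44% to 6.60% of the column total in the mutants and 5.96% to 7.18% in the controls. The lowest control share was that of replicate 3, which was below controls 1 and 2 in 11 of the 13 genes.

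**Figure D3:**
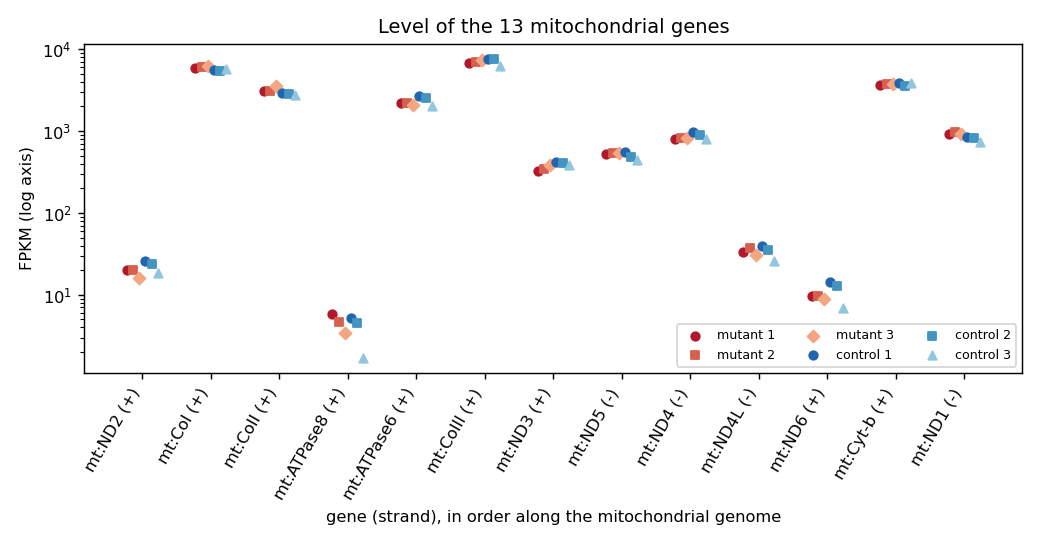
Level of each mitochondrial gene in each library (vertical axis, FPKM on a log axis), in order along the mitochondrial genome, with the coding strand in brackets. Reds are mutants and blues are controls, and the differences between genes are far larger than those between libraries of 1 gene, mt:ATPase8 being lowest and mt:CoIII highest in each library.

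Neighbouring mitochondrial genes differed widely in level. mt:ATPase8 and mt:ATPase6, the least abundant gene and 1 of the most abundant, share 7 bases on the same strand and are known to lie on 1 transcript. mt:ATPase8 is 162 bases long, which leaves few positions for a read of 75 bases, and how the authors corrected for short genes is not given in the sources used here. mt:ND4L and mt:ND4 share 1 base and also differed, at 33.7 ± 3.34 and 816 ± 3.68 FPKM in mutants (mean ± SD, n = 3). The forward strand carries 9 of the genes and the reverse strand 4, with median log2 fold changes of -0.01 and 0.07.

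Of the 3 mitochondrial genes of complex IV, cytochrome c oxidase, 2 had every mutant above every control, and none of the 3 passed the test. mt:CoI (1474 to 3009, forward strand) encodes the subunit where oxygen is reduced, and had 5975, 6110 and 6330 FPKM in mutants and 5617, 5462 and 5699 FPKM in controls. mt:CoII (3083 to 3767, forward strand), which takes electrons from cytochrome c, had 3057, 3130 and 3562 FPKM in mutants and 2938, 2851 and 2777 FPKM in controls. The mutant means of the pair were 110% and 114% of the control means (log2 fold changes 0.13 and 0.18, limma adjusted p = 0.782 and 0.619). For mt:CoI the SD was 179 FPKM in mutants and 120 FPKM in controls, and the SE of the fit was 0.27. That SE also draws on other genes of similar level, so the missing call does not reflect the spread of mt:CoI alone. mt:CoIII had 6845, 6898 and 7472 FPKM in mutants and 7613, 7511 and 6256 FPKM in controls, so the groups overlapped and the log2 fold change was -0.01.

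Complex I, the NADH dehydrogenase, had 7 mitochondrial members with no common direction. mt:ND1 (11721 to 12659, reverse strand), a membrane subunit beside the ubiquinone site, had 910, 970 and 918 FPKM in mutants and 845, 815 and 733 FPKM in controls. The mutants lay above the controls without overlap, at 117% of the control mean (log2 fold change 0.23, 95% interval -0.11 to 0.57, limma adjusted p = 0.347). mt:ND5 had 531, 541 and 533 FPKM in mutants and 554, 488 and 442 FPKM in controls, where control 1 lay above the mutants. Mutants were thus higher without overlap in 3 of 13 mitochondrial genes and lower without overlap in 0 of 13, against backgrounds of 9.46% and 21.8%. With each library left out in turn, the adjusted p in limma lay between 0.272 and 0.907 for mt:CoI, between 0.274 and 0.861 for mt:CoII and between 0.161 and 0.588 for mt:ND1.

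The other complex I genes of the mitochondrial genome, which encode membrane subunits, had lower or similar values in mutants. mt:ND2 had 20.3, 20.1 and 16.1 FPKM in mutants and 25.8, 24.1 and 18.2 FPKM in controls. mt:ND6 had 9.76, 9.63 and 8.97 FPKM in mutants and 14.4, 12.7 and 6.81 FPKM in controls. Both genes had all mutants below controls 1 and 2, as did mt:ND3, mt:ND4, mt:CoIII and mt:ATPase6, which makes 6 of 13, against 36.7% of all genes. Without control replicate 3, mt:ND2 and mt:ND6 were called lower (log2 fold changes -0.39 and -0.48, limma adjusted p = 0.0395 and 0.00731), and 0 of 13 were called higher. These 2 of 13 are near the 16.2% of all genes called lower in that setting. With all 6 libraries the values were -0.25 and -0.18 (limma adjusted p = 0.299 and 0.647).

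mt:ND3 had log2 fold changes of -0.19, mt:ND4 of -0.14 and mt:ND4L of 0.02. For complex III, mt:Cyt-b was the steadiest gene, at 3702, 3776 and 3757 FPKM in mutants and 3855, 3590 and 3848 FPKM in controls. Its log2 fold change was -0.01 with a 95% interval of -0.55 to 0.53, so changes smaller than these bounds are not resolved. For complex V, mt:ATPase6, the proton channel subunit, had 2207, 2219 and 2072 FPKM in mutants and 2681, 2564 and 2026 FPKM in controls (log2 fold change -0.15, limma adjusted p = 0.675). mt:ATPase8 had 5.80, 4.70 and 3.45 FPKM against 5.20, 4.51 and 1.69 FPKM, and its log2 fold change of 0.30 became -0.07 without control replicate 3.

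Set against the mitochondrial transcripts of the same library, the nuclear transcripts were lower in each mutant than in each control. This ratio does not depend on how a library is scaled. The 8 nuclear genes summed to 10.4%, 10.9% and 9.79% of the mitochondrial sum in mutants and to 13.4%, 14.0% and 11.2% in controls. With the wider set included, 64 nuclear genes summed to 47.5%, 50.0% and 45.4% of it in mutants and 60.2%, 62.2% and 51.1% in controls, or 47.6% ± 2.32 and 57.8% ± 5.93 (mean ± SD, n = 3 each). Control 3 was again nearest to the mutants, but in these ratios it stayed outside their range. The summed nuclear levels behind the ratio were 11598, 12439 and 11758 FPKM in mutants and 15389, 15356 and 11759 FPKM in controls. The mitochondrial sums were 24437, 24875 and 25908 FPKM in mutants and 25584, 24673 and 23022 FPKM in controls. In control 3 the nuclear sum lay within the mutant range, and the mitochondrial sum was the lowest of the 6 libraries. The place of control 3 outside the mutants in the ratio thus rests on its mitochondrial sum. As both sums are made of genes chosen with results of these data known, the ratio is a description without a test.

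**Figure D4:**
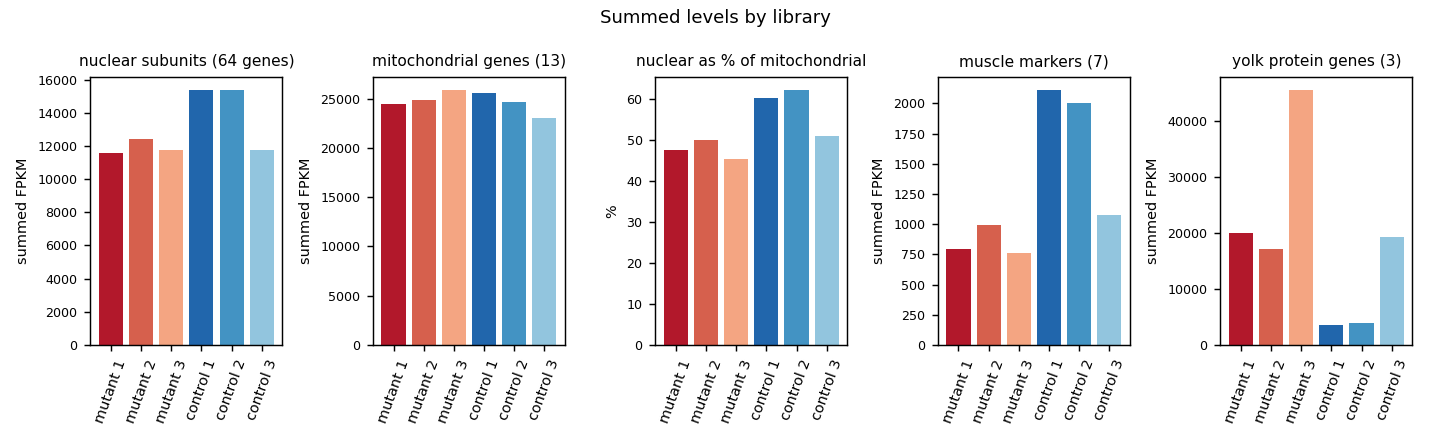
Summed FPKM by library (bars, mutants red and controls blue) of the 64 nuclear genes, the 13 mitochondrial genes, 7 muscle markers and 3 yolk protein genes, and, in the middle panel, the nuclear sum as a percent of the mitochondrial sum. The nuclear percent is 45.4 to 50.0 in mutants and 51.1 to 62.2 in controls, and the muscle sum follows the nuclear sum in having control replicate 3 well below the other controls.

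Within single complexes the same ratio was taken between the nuclear genes of the rule and wider set and the mitochondrial genes of that complex. Subunits listed under other names, such as blw in complex V and RFeSP in complex III, are left out. The ratios may therefore cover only part of a complex. In complex I the nuclear sum was 126%, 129% and 123% of the mitochondrial sum in mutants and 148%, 158% and 141% in controls. In complex IV it was 14.0%, 15.0% and 13.3% in mutants and 18.1%, 18.2% and 15.3% in controls, and in complex V 185%, 198% and 202% against 214%, 223% and 207%. The groups did not overlap in these 3 complexes. In each of them control 3 had a nuclear sum within the mutant range and the lowest mitochondrial sum of the 6 libraries. How often such a ratio separates the groups for other genes was not computed. In complex III, with mt:Cyt-b as the single mitochondrial gene, the values were 34.2%, 36.3% and 33.3% in mutants and 43.2%, 47.3% and 33.0% in controls, and control 3 was the lowest of all.

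The wider nuclear set covered all 5 complexes, and nearly all of its genes had lower values in the mutants than in controls 1 and 2. Of its 56 genes that passed the filter, 55 had a log2 fold change below 0, with a median of -0.23, and 2 were called lower and 0 higher by limma, against backgrounds of 7.81% and 3.53%. At an unadjusted p under 0.05, 8 of 56 were lower, against 19.2% of all genes. Groups did not overlap in 12 of 56, all with the mutants lower, against 21.8%. Control 3 was below both other controls in 55 of 56 genes, against 43.8%, and all mutants were below controls 1 and 2 in 54 of 56, against 36.7%. Control 3 lay within the mutant range in 23 of 56, which is near the 42.6% of all genes. Without control replicate 3, 45 of 56 were called lower and 0 higher, against 16.2% and 9.93% of all genes, and with median-ratio scaling besides, 24 of 56 were lower and 0 higher, against 11.8% and 12.2%. With any other library left out, 0 of 56 were called. Control 3 lay low in these same genes, so leaving it out makes the fold changes more negative by itself.

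**Figure D5:**
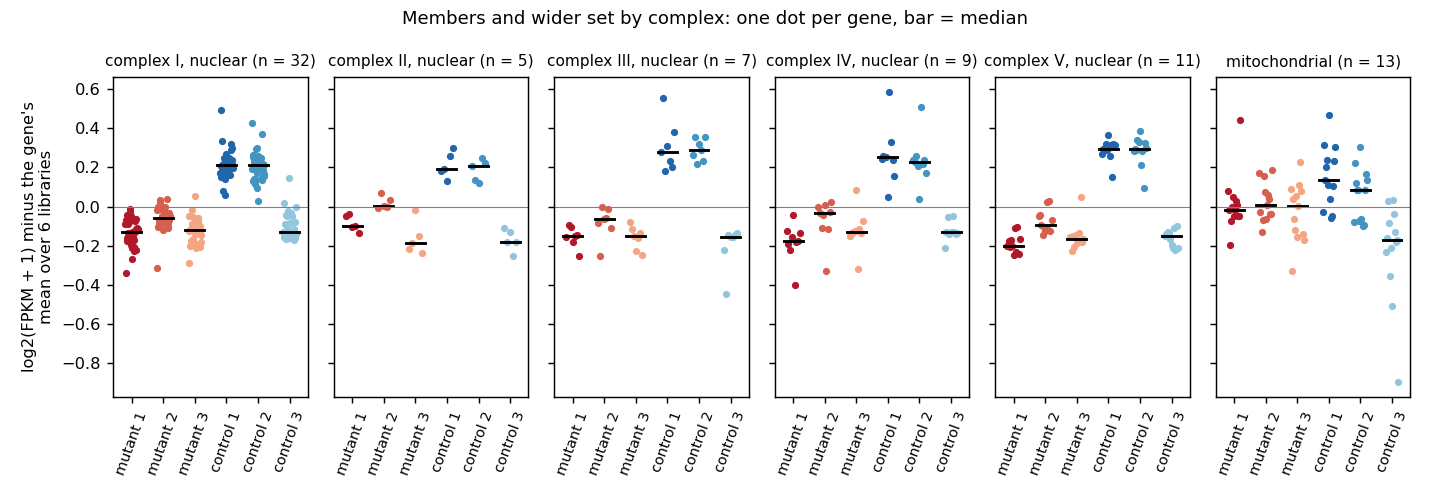
Each dot is 1 gene in 1 library, as log2(FPKM + 1) minus the mean of that gene over the 6 libraries (vertical axis), for the nuclear genes of each complex (8 members and the wider set) and for the 13 mitochondrial genes, with the median as a bar. In every nuclear panel controls 1 and 2 are high and control 3 lies with the mutants, while the mitochondrial genes scatter more in control 3.

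Taken by complex, the summed level of nuclear genes in mutants was 85.7% of the control mean for complex I (32 genes), 91.3% for complex II (5), 84.0% for complex III (7), 86.4% for complex IV (9) and 81.0% for complex V (11). Against controls 1 and 2 alone the mutants were at 80.1%, 84.8%, 77.1%, 80.0% and 73.7%, and control 3 was at 80.2%, 78.7%, 75.4%, 77.7% and 73.1%. Among the genes summed here, complex V thus had the lowest values of the 5 in the mutants and in control 3. Subunits listed under other names, such as blw, are not in these sums. The 5 genes of complex II include Sdhaf3, an assembly factor found by its prefix, at 9.61 to 14.4 FPKM. The difference between complexes was not tested.

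In complex I the most abundant nuclear genes were ND-51, ND-42 and ND-B12. ND-51, which encodes the flavoprotein that accepts electrons from NADH, had 225, 222 and 220 FPKM in mutants and 238, 245 and 225 FPKM in controls, with a log2 fold change of -0.09. ND-42 had 160, 170 and 161 FPKM in mutants and 214, 222 and 166 FPKM in controls, with a log2 fold change of -0.28. ND-B12 had one of -0.26 and ND-B18 one of -0.35, and none of the 4 passed the test (limma adjusted p between 0.184 and 0.591). Without control replicate 3, 24 of the 32 nuclear genes of complex I were called lower, against 16.2% of all genes, and ND-51 was not among them (log2 fold change -0.12, limma adjusted p = 0.243).

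ND-13B, an accessory subunit of complex I listed as CG6463 (3L, 10693184 to 10694108, reverse strand), was 1 of the 2 genes called. It had 87.2, 88.6 and 90.3 FPKM in mutants and 156, 149 and 112 FPKM in controls. The mutants lay close together below all controls, and control 3 stood between the mutants and the other controls. Its log2 fold change of -0.63 (SE 0.13) passed the threshold, with an adjusted p of 0.0251 in limma, and was -0.77 without control replicate 3 (limma adjusted p = 0.000493). The call was lost with any other library left out (limma adjusted p up to 0.0969) and after median-ratio scaling (limma adjusted p = 0.0530).

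Complex III genes had log2 fold changes between -0.40 and -0.17. UQCR-14 had 392, 422 and 380 FPKM in mutants and 478, 491 and 381 FPKM in controls, and UQCR-C1, a core subunit, had 292, 311 and 289 against 380, 395 and 291 FPKM. UQCR-Q had 160, 177 and 160 FPKM in mutants and 248, 244 and 173 FPKM in controls, the largest log2 fold change of the 7 on the log2(FPKM + 1) scale (-0.40, limma adjusted p = 0.145). As a percent of the control mean, its mutants were at 74.6% and those of the scarce UQCR-11L lower, at 65.2%. In all 3 genes control 3 lay within the mutant range. UQCR-Q shares 210 bases with CG46525 on the same strand, so its reads may be divided. All 701 bases of UQCR-14 lie within the span of CG32576 on the opposite strand, and the use of strand in counting is not given. All 7 genes were called lower without control replicate 3, against 16.2% of all genes.

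In complex IV, COX5A had 525, 585 and 546 FPKM in mutants and 718, 702 and 547 FPKM in controls, and COX4 had 429, 468 and 422 against 555, 553 and 405 FPKM. COX7A was the exception among the 56 genes, with 212, 220 and 232 FPKM in mutants and 226, 225 and 200 FPKM in controls with an adjusted p of 0.883 in limma (log2 fold change 0.03). COX7AL2 (2L, 2192525 to 2197912, reverse strand), a relative of COX7A listed as CG34172, was the other called gene. It had 7.49, 7.92 and 7.98 FPKM in mutants and 15.8, 15.0 and 9.83 FPKM in controls and its log2 fold change was -0.70 (SE 0.16), with an adjusted p of 0.0317 in limma. The mutants were at 57.6% of the control mean without overlap, while the far more abundant COX7A was at 102%. Leaving out any library other than control replicate 3 ended this call (limma adjusted p up to 0.106), as did median-ratio scaling (limma adjusted p = 0.0602).

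In complex V, ATPsynC, the subunit of the membrane ring, had 511, 556 and 533 FPKM in mutants and 783, 794 and 529 FPKM in controls (log2 fold change -0.37, limma adjusted p = 0.246). ATPsynO, which joins the peripheral stalk to the head, had 350, 379 and 365 FPKM in mutants and 517, 519 and 386 FPKM in controls, without overlap (log2 fold change -0.36, limma adjusted p = 0.171). ATPsynG differed from these with 371, 407 and 414 FPKM in mutants and 444, 426 and 343 FPKM in controls, where control 3 was the lowest library (log2 fold change -0.02). Without control replicate 3, 10 of the 11 nuclear genes of complex V were called lower, against 16.2% of all genes, and ATPsynG was not (limma adjusted p = 0.283).

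Many of the nuclear subunits have a second, related gene, and nearly all of these were close to 0 in heads. Of 13 such genes, named after the main gene with an added L, 11 had a mean under 1 FPKM, while the main genes had means from 24.9 to 792 FPKM. ATPsynbetaL had 0 to 0.114 FPKM beside ATPsyn-beta at 677 to 988 FPKM. The exceptions were COX7AL2 and UQCR-11L, the latter at 1.29, 1.05 and 1.26 FPKM in mutants and 2.59, 2.13 and 0.790 FPKM in controls. All 443 bases of UQCR-11L lie within the span of Acsl on the same strand. Exons were not compared, so whether its reads can be told from those of Acsl is unknown. All 15 genes of the wider set that failed the filter stayed at or under 0.859 FPKM in each library. Several such copies are known from the fly testis, and 6 of 8 testis markers measured were under 1 FPKM in all libraries. Control replicate 2 held the highest value in 7 of the 11 low copies. In 3 of them, SdhAL, SdhCL and ND-B14.5AL, every other library was at 0. Their values in control replicate 2 were 0.1, 0.165 and 0.169 FPKM, which are close to 0 at an unknown depth. All 2148 bases of SdhAL lie within the span of CG44837 on the same strand. All 758 bases of ND-B14.5AL lie within that of CG14459 on the opposite strand. The testis markers ocn, djl and Mst84Db were likewise above 0 in control replicate 2 alone, at 0.764, 0.186 and 0.641 FPKM. Mst98Ca, dj, betaTub85D and bol were highest in control replicate 2 but above 0 in other libraries too, bol at 3.61 to 5.54 FPKM. twe went the other way, with 0.841, 0.649 and 0.590 FPKM in mutants and 0.322, 0.503 and 0.583 FPKM in controls. Of the 8 markers only bol passed the filter.

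Genes of the pathway with other names followed the nuclear subunits. Of 10 tested, 2 of which are also in the wider set, 0 passed the test, against 7.81% of all genes lower and 3.53% higher, and the median log2 fold change was -0.27. Cyt-c-p, the cytochrome c of somatic cells, had 169, 195 and 151 FPKM in mutants and 276, 280 and 175 FPKM in controls (log2 fold change -0.48, limma adjusted p = 0.171). blw, the alpha subunit of ATP synthase, had 696, 735 and 682 FPKM in mutants and 1053, 1065 and 670 FPKM in controls (log2 fold change -0.37). In Cyt-c-p control 3 lay within the mutant range and in blw just below it, and without it 9 of the 10 genes were called lower, against 16.2% of all genes. Their unadjusted count was 2 of 10 lower and 0 higher in limma, against 19.2% and 8.14%.

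Among genes that keep and express the mitochondrial genome 1 of 13 tested was lower and 0 were higher, which is near the 7.81% and 3.53% of all genes, with a median log2 fold change of -0.16. The called gene was mtSSB, the single-stranded DNA binding protein of mitochondrial DNA replication, with 5.57, 5.89 and 5.26 FPKM in mutants and 7.05, 7.77 and 8.30 FPKM in controls (log2 fold change -0.40, limma adjusted p = 0.0209). Here control 3 was the highest library. Without it 2 of the 13 were called lower, near the 16.2% of all genes. TFAM, which packs mitochondrial DNA, had a log2 fold change of -0.10, and PolrMT, the mitochondrial RNA polymerase, one of -0.16 (limma adjusted p = 0.394 and 0.393).

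The citric acid cycle, which feeds complexes I and II, had a list of 15 genes. These include Men, Idh, Pdha and Pdhb, which are enzymes beside the cycle. Of the 15, 1 was lower and 0 were higher, near the 7.81% and 3.53% of all genes, with a median log2 fold change of -0.23. It was Sucb, currently ScsbetaG, a subunit of succinyl-CoA ligase, with 13.4, 13.5 and 12.9 FPKM in mutants and 17.2, 16.9 and 17.1 FPKM in controls (log2 fold change -0.34, limma adjusted p = 0.0157). The 3 controls lay together above the mutants. Without control replicate 3, 11 of the 15 were lower, against 16.2% of all genes, among them kdn, citrate synthase, at 106, 116 and 107 FPKM in mutants and 162, 165 and 97.3 FPKM in controls. The call of mtSSB was lost without mutant 1, mutant 3 or control 2 (limma adjusted p up to 0.0808), and that of Sucb without mutant 2, mutant 3, control 1 or control 2 (up to 0.0837).

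Of 10 genes of ubiquinone synthesis and electron entry, 1 was higher and 1 lower, against 3.53% and 7.81% of all genes, and 1 and 2 without control replicate 3, against 9.93% and 16.2%. Coq6, listed as CG7277, a hydroxylase of ubiquinone synthesis, had 32.9, 34.0 and 32.3 FPKM in mutants and 25.2, 26.8 and 26.1 FPKM in controls (log2 fold change 0.33, limma adjusted p = 0.0206). qless, which makes the side chain of ubiquinone, had 1.95, 2.19 and 1.67 FPKM in mutants and 4.09, 3.59 and 2.51 FPKM in controls (log2 fold change -0.57, limma adjusted p = 0.0484). In both genes the groups did not overlap. Both calls were lost with any library other than control 3 left out (limma adjusted p up to 0.115 and 0.165), that of Coq6 also with scaling to the nuclear total (0.155) and that of qless with median-ratio scaling (0.0689), among other settings. Of 8 assembly factors 0 were called by limma, and by unadjusted p 4 were lower, against 19.2% of all genes. Leaving out control replicate 3, 3 of the 8 were called lower, against 16.2%. Of 11 carriers and genes of mitochondrial biogenesis 0 were called and 0 were past the unadjusted threshold, among them sesB, the ATP/ADP carrier, at 459, 501 and 454 FPKM in mutants and 669, 689 and 440 FPKM in controls. With control replicate 3 left out, 3 of the 11 were called lower, against 16.2%.

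Markers of muscle moved with the nuclear genes across the libraries. Their 7 genes summed to 795, 992 and 758 FPKM in mutants and 2111, 2001 and 1076 FPKM in controls, so control 3 lay between the mutants and the other controls. Of 6 tested, 3 were called lower and 0 higher, against 7.81% and 3.53% of all genes, with a median log2 fold change of -0.88. All 6 were called lower without control replicate 3, against 16.2%. Mlc2, a myosin light chain, had 406, 508 and 390 FPKM in mutants and 1206, 1143 and 608 FPKM in controls (log2 fold change -1.13, limma adjusted p = 0.0402). The other called genes were wupA, troponin I, at -0.75 and the actin gene Act88F at -1.23, and fln was at 0 to 0.282 FPKM. Act88F had 0.864, 0.876 and 0.928 FPKM in mutants and 3.47, 4.63 and 2.48 FPKM in controls. It passed the filter of 1 FPKM only through its control values. Act88F was called in each setting that tested it, and the filter of 5 FPKM left it out. Mlc2 and wupA were not called with median-ratio scaling (limma adjusted p = 0.0649 and 0.0800), among other settings, or with any library other than control 3 left out. The part of muscle in the nuclear result was not tested.

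Markers of other cell types gave the following values, few of which passed the test over all 6 libraries. The 3 yolk protein genes, made in female fat body, summed to 20082, 17149 and 45658 FPKM in mutants and 3582, 3972 and 19399 FPKM in controls. Control 3 lay among the mutants, and 0 of 3 genes were called (3 of 3 were higher by unadjusted p in limma, against 8.14% of all genes). All 3 were called higher once control replicate 3 was left out, against 9.93%. The 5 fat body markers summed to 454, 421 and 926 FPKM in mutants and 195, 219 and 520 FPKM in controls. Of 4 tested, 1 was called higher, against 3.53%, and all 4 without control replicate 3, against 9.93%. The called gene was to, at 88.3, 95.5 and 64.1 FPKM in mutants and 44.9, 49.5 and 43.5 FPKM in controls (limma adjusted p = 0.0149), and its call was lost without mutant 1 (0.0607) or control 1 (0.0572). Yolk and fat body sums thus ran opposite to the nuclear sum, with control 3 on the side of the mutants in both.

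The 5 glial markers summed to 458, 494 and 428 FPKM in mutants and 616, 598 and 456 FPKM in controls, where control 3 again lay among the mutants. By limma 0 were called (1 lower by unadjusted p, against 19.2% of all genes), and 4 of 5 were called lower without control replicate 3, against 16.2%. The 6 neuronal markers summed to 181, 145 and 140 FPKM in mutants and 187, 209 and 173 FPKM in controls. By limma 0 were called (3 lower by unadjusted p, against 19.2% of all genes). Without control replicate 3, 3 of the 6 were called lower, against 16.2%, namely ChAT, nSyb and VAChT. The 7 photoreceptor markers summed to 27713, 27012 and 21672 FPKM in mutants and 19203, 18170 and 21574 FPKM in controls. The lowest mutant was just above control 3, and most of the sum came from ninaE, Arr1 and Arr2. Only 1 of the 7, ninaE, had all mutants above all controls, against 9.46% of all genes. The log2 fold change was -0.12 for inaD and 0.001 for ninaC, and the other genes lay between 0.14 and 0.48. By limma 0 were called, and 0 by unadjusted p. Without control replicate 3, 1 of the 7 was called higher, against 9.93% of all genes. This was the rhodopsin gene ninaE (limma adjusted p = 0.0247). The part of these cell types in the nuclear result was not tested.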

How the data were processed

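Poly(A) RNA of fly heads was measured in 6 libraries, 3 Prp31_P18 and 3 white, as strand-specific single reads of 75 bases after 15 cycles of PCR, per the labels' protocols. The authors deposited FPKM for each gene in each library, without pooling replicates. CASAVA 1.8, STAR 2.5.2b and the build BDGP6 are named in the submitters' processing notes. The tool that computed FPKM, the annotation, the use of strand and the handling of reads that fit several places were not stated in the sources used here. FPKM depends on the total of each library, so a change in the most abundant transcripts shifts the values of the rest. Depth per library is unknown, and no counting interval was computed.

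Columns were matched to samples by title, and 0 columns belonged to no sample. Genes averaging 1 FPKM or more were tested. On log2(FPKM + 1), mutants were compared with controls by limma 3.58.1 (R 4.3.3) with a variance trend and no covariate, adjusted by Benjamini-Hochberg over 8465 genes, with a threshold of 0.05. Fold changes on this scale understate changes of low genes. The fit was also run on simulated data with independent noise. Such noise holds no shift shared by the genes of a library, so that run does not bear on control replicate 3. Of the table's gene identifiers, 11630 were found in the reference names, and positions are those of the reference annotation of BDGP6. The 92 genes of the rule and the wider set all had a position.

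The genes named with values were the called ones, the 3 most abundant and 2 most changed of each complex, all mitochondrial genes, related gene pairs, called genes of 6 further pathway lists, and 7 marker lists. Of the genes so chosen some are given by counts only, and Cyt-c-p, blw, TFAM, PolrMT, kdn, sesB, ATPsynG, ocn, djl, Mst84Db, ninaE, ChAT, nSyb and VAChT were singled out after their values were seen. The members and lists were chosen with earlier results of these data known.

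The alternatives were a pseudocount of 0.1 or 0.5, a filter of 5 FPKM or none, each library left out, scaling by median ratio, by quantiles or to the total of nuclear genes, and fits with library weights, a robust prior, no variance trend, or the replicate as a block. Median-ratio scaling without control replicate 3, and all settings for the wider set, were added after seeing the data.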

Additional observations from a re-analysis of the deposited data

How the results depend on the processing

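None of the 21 genes was called under the other pseudocounts, filters, scalings and variance settings over all 6 libraries, with library weights as the exception. Library weights called 6 nuclear, 3 mitochondrial and 43 wider genes lower (of all genes 1128 higher and 2170 lower). With control replicate 3 left out and median-ratio scaling 4, 2 and 24 were lower (1028 higher and 1000 lower of all). Leaving out each library in turn gave 0 to 6 nuclear, 0 to 2 mitochondrial and 0 to 45 wider genes lower, the upper ends without control replicate 3, and 148 to 839 higher and 258 to 1369 lower of all genes. The median log2 fold change then ran from -0.43 to -0.20 for the nuclear genes, from -0.10 to 0.04 for the mitochondrial genes and from -0.35 to -0.16 for the wider set. The wider set's 2 calls became 1 with no filter, 1 with quantile normalization and 0 with median-ratio scaling, and the 661 lower calls of all genes became 417 with a filter of 5 FPKM, where 6145 genes were tested. Median-ratio scaling gave medians of -0.21 (nuclear), 0.07 (mitochondrial) and -0.15 (wider), with 360 higher and 454 lower of all genes. Scaling to the nuclear total gave -0.37, -0.09 and -0.31, where the median of all genes was -0.14. The mitochondrial median thus changed sign between scalings, while those of the nuclear genes did not. The replicate block changed no call of the 21 genes, which stayed at 0, or of the wider set, which stayed at 2. The labels give the numbers no meaning, and deviations of same-numbered libraries correlated at -0.01, 0.21 and 0.32, so the numbers were not used as pairs. Not every library correlated best with its own number. The depth of each library is unknown, and the fit's spread for abundant genes such as mt:CoI, where intervals reach 0.50 below and 0.77 above 0, limits what could be called. The cause of these differences was not tested.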
